A study of Homo sapiens with 6 samples.

Results

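The genes described here are 6 receptor tyrosine kinases (MET, MST1R, AXL, EGFR, ERBB2 and ERBB3) and 4 ligands of the epidermal growth factor (EGF) type (AREG, EREG, TGFA and HBEGF). They are chosen by symbol and matched through the Ensembl gene identifier, which finds all 10 among the 58395 genes of the deposited tables. All 10 also pass the filter on low counts, which leaves 15566 genes for testing. The RNA comes from HCT116, an established line of human colorectal cancer cells. One group of 3 libraries carries a non-target hairpin (shControl) and the other 3 carry a hairpin against STBD1 (shSTBD1), and both groups are the same line grown in the same medium. STBD1 is a glycogen-binding protein proposed to carry glycogen into autophagosomes, and the study asks how its depletion alters gene expression. The hairpins are delivered by lentivirus with drug selection. The knockdown rests on a single hairpin as labelled, so an effect of this hairpin and an effect of STBD1 loss cannot be told apart.

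EGF-type ligands are made as membrane-anchored precursors, which cell-surface proteases cut to release the active growth factor. The ligands bind EGFR or its relatives on the same or a neighbouring cell, the receptors pair, and the paired kinases switch on the MAPK and PI3K pathways. MET and MST1R answer to hepatocyte growth factor and to macrophage-stimulating protein, AXL answers to GAS6, and colon cancer cells often make AREG and EREG themselves.

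Of the 10 genes, 5 differ between the groups at an adjusted p under 0.05 (edgeR, quasi-likelihood F-test, adjusted over all tested genes by the Benjamini-Hochberg method), where 15.8% of all tested genes do. AREG and MST1R rise in shSTBD1, and 8.22% of all tested genes are called higher. MET, EGFR and EREG fall, and 7.54% of all tested genes are called lower. The calls cover 3 of the 6 receptors and 2 of the 4 ligands. The 10 genes were chosen with earlier results of these data known, so their share called cannot be weighed against that of all tested genes. AREG shows the largest change of the 10, a 1.54-fold increase, while MET, EGFR and EREG each fall to between 0.84 and 0.863 of their shControl level. AXL, ERBB2, ERBB3, TGFA and HBEGF do not pass the test. The p-values set the group difference against the spread between the libraries, estimated with information shared over genes. The study calls the libraries biological replicates without saying how they were raised.

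The libraries hold between 17689097 and 21668274 expected counts. STBD1 itself is at 5.73, 5.83 and 5.27 TPM (RSEM's estimate of transcript abundance, corrected for gene length and with an equal sum in all libraries) in the shControl libraries and at 4.19, 3.22 and 3.27 TPM in the shSTBD1 libraries. The groups do not overlap, and the log2 fold change is −0.64 ± 0.098 (SE, edgeR adjusted p = 2.9e-04). The fold change leaves 0.642 of the control level of STBD1 RNA. Replicate 1 of shControl stands apart from the rest of its group: the chi-square statistic per degree of freedom between the counts of libraries is 6.2 and 4.93 for the pairs that hold it, 1.65 for the other shControl pair and 1.8 to 2.02 for the shSTBD1 pairs. Its effect on the values is given beside some of the calls and ratios below.

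The labelled cell type is checked against marker lists. EPCAM, a surface protein of epithelial cells, is at 177 TPM in both groups on average, and 7 of 10 colon epithelial markers have enough counts to test, whereas VIL1, CDH17 and LGALS4, genes of differentiated gut epithelium, are under 1 TPM in all libraries. Of the tested 7, edgeR calls 4 higher in shSTBD1 and 0 lower (5 higher and 0 lower at an unadjusted p under 0.05). Of all tested genes 8.22% are called higher. DESeq2, which gives an adjusted p to 6 of the markers, calls 4 higher and 0 lower. Among those called, the log2 fold change is 0.29 for CDH1, the epithelial cadherin, 0.28 for KRT19 and 0.22 for KRT8, both keratins. The 3 not called are EPCAM (0.040), KRT20 (0.66, edgeR adjusted p = 0.064) and CDX2 (−0.072, edgeR adjusted p = 0.66). CDX2 is at 7.65, 7.46 and 6.89 TPM in shControl and lower, at 5.59, 4.57 and 6 TPM, in shSTBD1, while its CPM overlap. Its log2 fold change runs from −0.45 to 0.011 over the 16 alternatives, and 0 of them call it. The summed TPM of the list is 2859 to 2894 in shControl and 3244 to 3380 in shSTBD1. Among the markers of other cells, 7 of 8 fibroblast, 7 of 8 immune and all 5 endothelial genes are under 1 TPM in every library, and PTPRC, CD3E and CD3D, which define leukocytes and T cells, are at 0 in all 6. The remaining fibroblast gene, COL1A1, is at 17 ± 2.48 TPM in shControl and 18.5 ± 1.91 TPM in shSTBD1 (SD, n = 3). Its log2 fold change is 0.13 (edgeR adjusted p = 0.25), and 1 of 16 alternatives calls it. The summed TPM of the immune list, 7.72 to 8.52 against 11.3 to 12.8, is almost all CD68, a lysosomal protein, with a log2 fold change of 0.47 (edgeR adjusted p = 0.0027). The part of these markers in the results below was not tested. In RNA from whole cultures, fewer cells that express a gene and less RNA per cell cannot be told apart.

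By level, the ligands AREG and EREG lead. On the TPM scale, which allows genes to be compared with each other, the shControl means run from AREG (402 ± 52.2, SD, n = 3) through EREG (169 ± 5.78), MET (85.1 ± 0.759), MST1R (48.2 ± 3.43), ERBB2 (32.8 ± 2.68), TGFA (21.1 ± 0.973), EGFR (19.8 ± 1.22), ERBB3 (14.4 ± 2.01) and AXL (7.55 ± 0.155) to HBEGF (4.92 ± 1.1). The order is the same in shSTBD1. Among neighbours in this order, only the shControl ranges of TGFA and EGFR overlap. The rank of ERBB3 depends on the estimate: the posterior mean TPM that RSEM also gives puts it at 36 ± 3.3 in shControl, in 5th place ahead of ERBB2, and only 6 of the 10 genes keep their rank. AREG is among the abundant transcripts of these cells: 250 genes, itself included, reach its mean TPM in shControl and 183 do in shSTBD1.

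**Figure D1:**
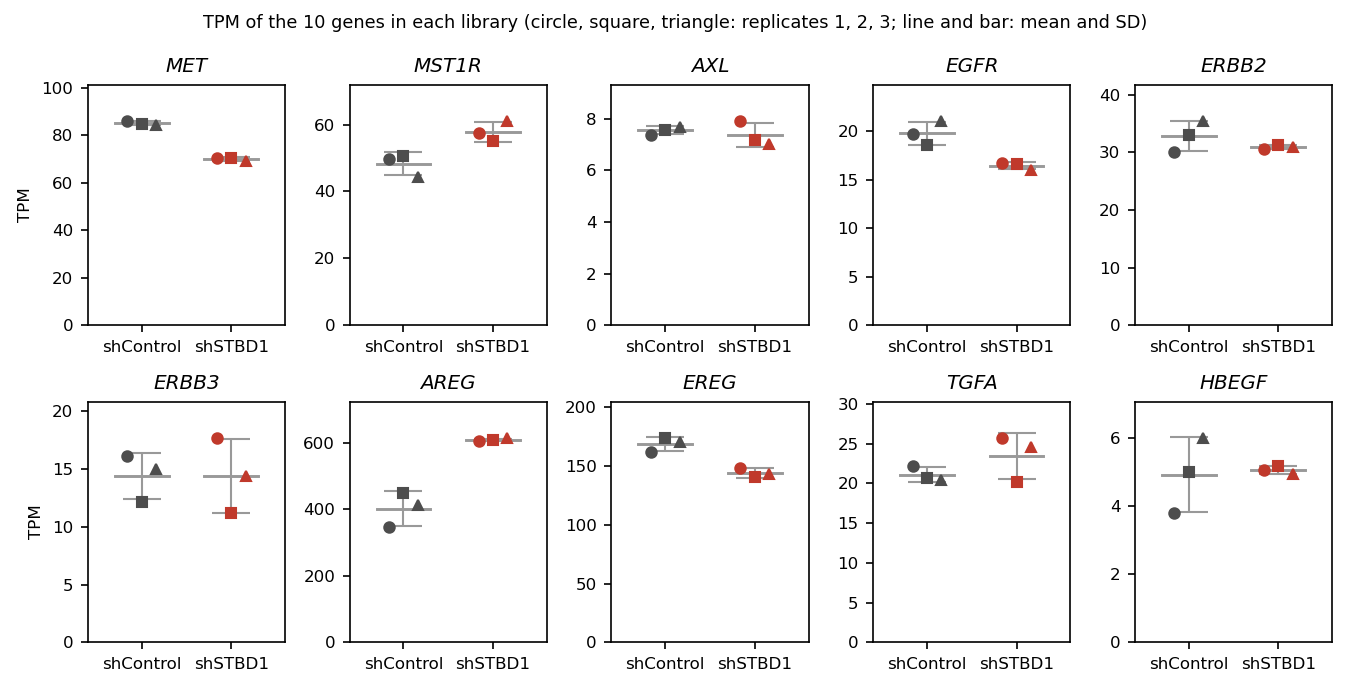
Each panel plots the TPM (y axis, from 0) of 1 gene in the 3 shControl libraries (grey) and the 3 shSTBD1 libraries (red), with the line at the mean and the bar at ± SD. The groups separate for MET, MST1R, EGFR, AREG and EREG, and overlap for AXL, ERBB2, ERBB3, TGFA and HBEGF.

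Among the ligands, AREG and EREG move in opposite directions. AREG encodes amphiregulin, an EGFR ligand that is a common autocrine growth factor of colon epithelium. Its level is 346, 449 and 412 TPM in the shControl libraries and 607, 609 and 613 TPM in the shSTBD1 libraries, from 5753 to 11332 expected counts per library. All 3 shSTBD1 libraries lie above all 3 shControl libraries, and replicate 1 of shControl is the lowest of the 6. The log2 fold change is 0.62 ± 0.052 (SE, edgeR adjusted p = 6.3e-07). It is 0.54 without replicate 1 of shControl and 0.69 without replicate 2 of shControl, and it passes the test under all 16 alternatives. Of the tested genes, 49 have a p as small or smaller and 102 called higher rise by as much or more on the log2 scale, AREG included in both counts. The spread of AREG between the libraries is 10.4% (SD) of the mean CPM, its count scaled to library size without regard to length, in shControl and 1.54% in shSTBD1.

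EREG encodes epiregulin, a ligand of EGFR and ERBB4. It is at 162, 173 and 170 TPM in shControl and at 148, 140 and 143 TPM in shSTBD1. The highest shSTBD1 library is below the lowest shControl library, replicate 1. The log2 fold change is −0.21 ± 0.030 (SE, edgeR adjusted p = 1.5e-04), and it stays between −0.23 and −0.20 with an adjusted p under the threshold in all 16 alternatives. The effective length that RSEM gives EREG is 4130 to 4179 bases, against 952 to 963 for AREG. In reads EREG therefore exceeds AREG in shControl, 613 CPM against 337, although its TPM is lower.

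The ratio of AREG to EREG within a library does not depend on how the libraries are scaled. It is 2.14, 2.59 and 2.42 in shControl and 4.1, 4.34 and 4.28 in shSTBD1, so the lowest shSTBD1 ratio is well above the highest shControl ratio. The difference on the log2 scale is 0.84, with p = 0.1 in a two-sided exact permutation test, the smallest p that 3 against 3 libraries allow (adjusted p = 0.18 over the 9 ratios compared). The groups also do not overlap for AREG to TGFA (difference 0.46), AREG to HBEGF (0.55), EREG to TGFA (−0.37) and EGFR to ERBB2 (−0.18), each with the same exact permutation p. Without replicate 1 of shControl the differences are 0.76 for AREG to EREG, 0.32 for AREG to TGFA and 0.62 for AREG to HBEGF. They are then −0.44 for EREG to TGFA and −0.12 for EGFR to ERBB2. For the other 4 ratios the groups overlap. Without the same library TGFA to HBEGF moves from 0.083 to 0.30 and EREG to HBEGF from −0.29 to −0.14. MET and EGFR, for example, keep a ratio of 4.02 to 4.56 in shControl and 4.22 to 4.3 in shSTBD1, a log2 difference of −0.019 (exact permutation p = 0.7).

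TGFA, transforming growth factor alpha, is at 22.2, 20.7 and 20.5 TPM in shControl and at 25.7, 20.2 and 24.6 TPM in shSTBD1. In TPM the groups overlap because replicate 2 of shSTBD1 is the lowest of all 6. In CPM they overlap because replicate 1 of shControl (58.0) lies above replicate 2 of shSTBD1 (57.3). The log2 fold change, which is fitted to counts, is 0.093 ± 0.046 and does not pass the test (edgeR adjusted p = 0.18). Without replicate 1 of shControl it is 0.13 and does pass (adjusted p = 0.044). HBEGF, the heparin-binding ligand, is the least abundant of the 10, with 130 to 209 expected counts per library. It is at 3.79, 4.99 and 5.98 TPM in shControl and between 4.94 and 5.16 TPM in shSTBD1, inside the shControl range, with a log2 fold change of 0.088 ± 0.13 (edgeR adjusted p = 0.69). Its SE is the largest of the 10, and its approximate confidence interval runs from −0.16 to 0.33.

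The 4 ligands together are at 534, 648 and 609 TPM in shControl and at 786, 774 and 786 TPM in shSTBD1. AREG supplies 67.3% ± 2.3 (SD, n = 3) of this sum in shControl and 78% ± 0.703 in shSTBD1, while the share of EREG is 28.4% ± 1.84 and 18.4% ± 0.409. TGFA supplies 2.6% to 4.16% and HBEGF 0.629% to 0.982% of the sum in the 6 libraries.

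AREG and EREG are neighbours on the long arm of chromosome 4 and point the same way (GRCh38, GENCODE release 44, plus strand): EREG spans chr4:74365145-74388749 and AREG chr4:74445136-74455005, 56387 bases further on. The 250 bases before each start, from RefSeq's GRCh38.p14 table, are shown because this is the pair that moves apart. Capitals mark a TATA box (TATAAA) in both and a cAMP response element (TGACGTCA) in AREG. The windows are chr4:74444886-74445135 and chr4:74364895-74365144.
AREG: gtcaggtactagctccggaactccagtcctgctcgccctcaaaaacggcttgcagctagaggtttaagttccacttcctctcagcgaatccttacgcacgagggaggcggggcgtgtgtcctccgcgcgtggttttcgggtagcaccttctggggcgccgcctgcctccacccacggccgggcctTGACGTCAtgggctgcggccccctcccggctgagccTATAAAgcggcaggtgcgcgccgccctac
EREG: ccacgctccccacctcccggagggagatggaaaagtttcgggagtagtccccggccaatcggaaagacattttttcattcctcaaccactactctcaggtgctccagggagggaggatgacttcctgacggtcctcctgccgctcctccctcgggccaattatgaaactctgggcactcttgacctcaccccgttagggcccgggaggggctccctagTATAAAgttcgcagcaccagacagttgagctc
The TATA box lies 29 to 24 bases before the start of AREG and 32 to 27 bases before that of EREG. The same letters are in the second window of EGFR, 146 to 141 and 36 to 31 bases before the start that this window precedes. That window begins at chr7:55109589, inside the span of the EGFR gene. The first EGFR window, from chr7:55018767, does not hold them. Of all 35116 windows of this length, 10.7% hold them on either strand. The cAMP response element, 65 to 58 bases before the start of AREG, is found in 1.65% of all windows and in none of the other windows of the 10 genes. RefSeq's table has 12 windows for 9 of the 10 genes (ERBB3 has none). GC boxes (GGGCGG) occur in 7 of the 12 windows and in 42.6% of all windows. The AP-1 motif (TGANTCA) is in the second window of EGFR, not in its first, and in that of ERBB2, and in 6.57% of all windows. The ETS motif CCGGAAG is in MST1R and ERBB2 (8.52% of all windows), the CCAAT box in EREG and ERBB2 (32% of all), and the E-box CACGTG in none of the 12 (6.35% of all). All motifs are sought on both strands, and no matches of different motifs overlap in these windows. A match describes the sequence and not its use in these cells.

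STBD1 lies on the same arm, 1851728 bases beyond the end of AREG. From EREG to STBD1 the files hold 40 genes, of which 16 are tested. Of these, 4 are called higher and 3 lower, against 8.22% and 7.54% of all tested genes. The stretch is bounded by EREG and STBD1, which are themselves among the calls. Beside AREG, the genes called higher are RCHY1, a ubiquitin ligase (log2 fold change 0.45 ± 0.063), NAAA, a lysosomal amidase (0.33 ± 0.080), and PARM1, a mucin-like protein (0.19 ± 0.049). Beside EREG and STBD1, SDAD1 is called lower (−0.12 ± 0.039, edgeR adjusted p = 0.045), a call kept in 5 of 16 alternatives, against 11 for PARM1, 14 for RCHY1 and 15 for NAAA. BTC, the EGFR ligand betacellulin, lies between AREG and PARM1 and is not called (0.041 ± 0.13, adjusted p = 0.87). FAM47E-STBD1, a read-through gene that shares exons with STBD1, is at −0.39 ± 0.22 (adjusted p = 0.26), and how the reads of the pair are divided is uncertain, since the posterior SD of the STBD1 count reaches 10.5% of it. For the 10 genes this SD is at most 0.0666% of the count, and it is 0 in all libraries for 7 of them.

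**Figure D2:**
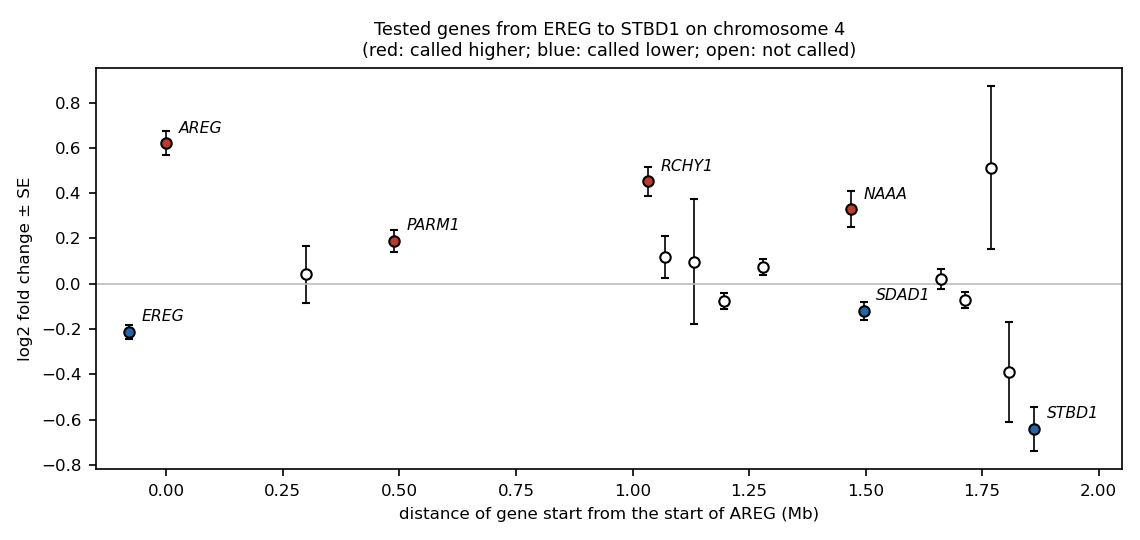
Each point is a tested gene from EREG to STBD1, placed by the distance of its start from that of AREG (x axis, Mb) and its log2 fold change ± SE (y axis), filled red where called higher, blue where called lower and open where not called. Genes called higher (4) and lower (3) lie among 9 that are not called.

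Of the receptors, MET is the most abundant. MET, the receptor of hepatocyte growth factor (chr7:116672196-116798377), is at 85.9, 84.9 and 84.4 TPM in shControl and at 70.5, 70.2 and 69 TPM in shSTBD1. The groups do not overlap and the spread within each is under 1 TPM (SD). The log2 fold change is −0.25 ± 0.035 (SE, edgeR adjusted p = 1.1e-04), which means that the level decreased by 16%, and it passes the test in all 16 alternatives. The change is small beside others in these cells: 374 genes called lower, MET included, fall by as much or more.

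EGFR, which all 4 ligands bind (chr7:55019017-55211628), falls by a like amount, from 19.7, 18.6 and 21 TPM to 16.7, 16.6 and 16.1 TPM. No library of one group reaches the other. The log2 fold change is −0.24 ± 0.039 (SE, edgeR adjusted p = 4.0e-04). It passes in 14 of 16 alternatives, but not with limma on log2(TPM + 1) or log2(TPM + 0.1), where the log2 fold change is −0.25 and −0.26 and the adjusted p is 0.119 and 0.117.

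MST1R, also called RON and the closest relative of MET (chr3:49887002-49903873), goes the other way. It is at 49.6, 50.7 and 44.3 TPM in shControl and at 57.5, 55 and 61 TPM in shSTBD1, without overlap. Its log2 fold change of 0.15 ± 0.039 (SE, edgeR adjusted p = 0.020) is the smallest of the 5 calls. It passes in 9 of 16 alternatives and is lost with DESeq2 (adjusted p = 0.0502), with limma on either log2 TPM (0.108 in both) and without replicate 3 of shControl (0.13, adjusted p = 0.074), replicate 1 of shSTBD1 (0.13, 0.093) or replicate 2 of shSTBD1 (0.15, 0.074). The effective length that RSEM assigns to MST1R runs from 1547 to 1974 bases between libraries, and with offsets for it the log2 fold change is 0.27 (edgeR adjusted p = 0.061).

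ERBB2, which has no known ligand and serves as the partner of the other ERBB receptors (chr17:39687914-39730426), is at 30, 33.1 and 35.4 TPM in shControl and within 30.5 to 31.2 TPM in shSTBD1. The shSTBD1 values lie inside the shControl range, and the log2 fold change is 0.0050 ± 0.035 (edgeR adjusted p = 0.94). ERBB3, the neuregulin receptor with a weak kinase (chr12:56076799-56103505), is at 16.1, 12.2 and 15 TPM in shControl and at 17.6, 11.2 and 14.4 TPM in shSTBD1. Replicate 2 is the lowest in both groups, and the groups overlap throughout, with a log2 fold change of 0.041 ± 0.060 (adjusted p = 0.70). The effective length of ERBB3 runs from 2375 to 3590 bases, a 1.51-fold range, while its CPM differ less, from 34.2 to 39.2. AXL, the GAS6 receptor (chr19:41219223-41261766), is at 7.39, 7.56 and 7.7 TPM in shControl and at 7.91, 7.17 and 7.04 TPM in shSTBD1. The groups overlap and the log2 fold change is −0.0085 ± 0.061 (adjusted p = 0.95). The sign of the difference turns with the alternative for AXL, ERBB2, ERBB3 and HBEGF, all 4 of which stay without a call in each.

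**Figure D3:**
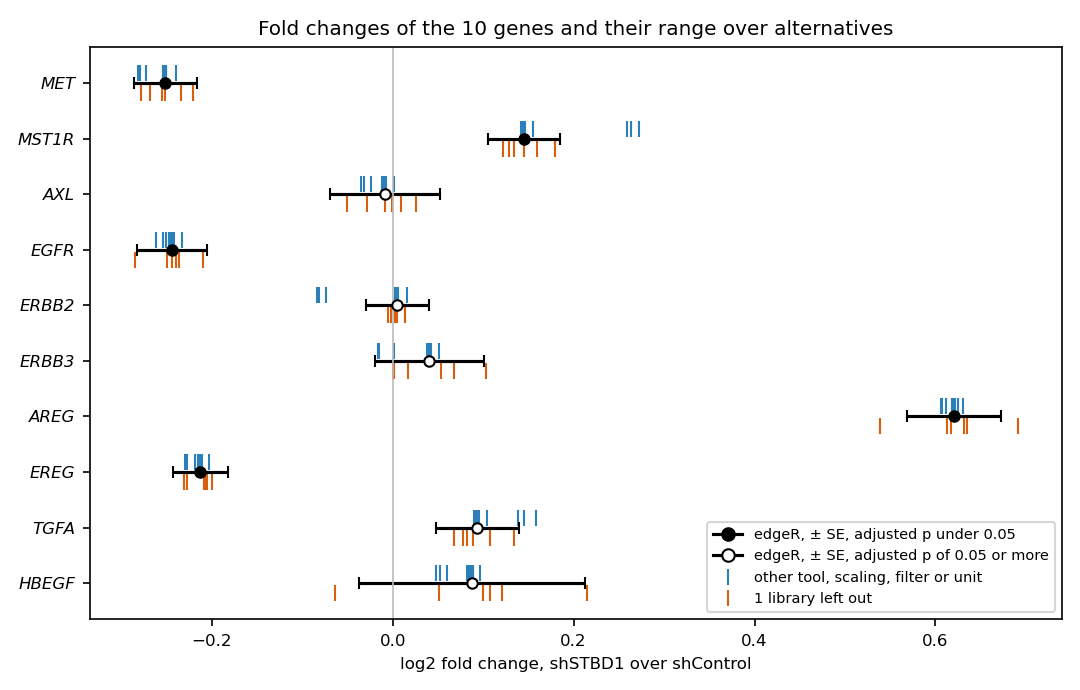
For each of the 10 genes the x axis gives the log2 fold change of shSTBD1 over shControl, with a circle and bar for edgeR's value ± SE (filled where the adjusted p is under 0.05), blue ticks for the other tools, scalings, filters and units, and orange ticks for fits with 1 library left out. AREG stays between 0.54 and 0.69, MET, EGFR and EREG stay below 0, and the values of AXL, ERBB2, ERBB3 and HBEGF lie on both sides of 0.

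The 2 groups are separated without overlap of their CPM for 5 of the 10 genes, those called, where 33.6% of all tested genes are separated. The choice of the 10 genes with earlier results known bears on this count too. The median log2 fold change is −0.0017 over the 6 receptors and 0.091 over the 4 ligands (0.035 without replicate 1 of shControl), and it is 0.0023 over all tested genes. The median absolute log2 fold change of all tested genes is 0.11, which MET, MST1R, EGFR, AREG and EREG exceed and the others do not.

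The other ERBB ligands and receptors are at low levels or below the filter. Of 8 further ERBB ligands and receptors, ERBB4, EGF, EPGN, NRG1 and NRG3 have too few counts to test, with at most 7 expected counts in a library. BTC, NRG2 and NRG4 are tested, at 3.08, 1.23 and 1.75 TPM in shControl, and none is called, with log2 fold changes of 0.041, −0.066 and 0.48 (edgeR adjusted p = 0.87, 0.87 and 0.17). None of the 3 has an unadjusted p under 0.05, and DESeq2, which gives an adjusted p to 1 of them, calls none. HGF, the ligand of MET, has 2 expected counts in 1 shSTBD1 library and 0 in the other 5, and HPN and HGFAC, proteases that activate it, are also below the filter. MST1, the ligand of MST1R, is at 3.6 TPM in shControl (log2 fold change −0.16, adjusted p = 0.62). The membrane protease ST14 and the inhibitors SPINT1 and SPINT2 are at 55.3, 69.4 and 301 TPM in shControl, with log2 fold changes of 0.068, 0.076 and −0.019. None of these 4 tested genes is called by edgeR or has an unadjusted p under 0.05, and DESeq2 calls none of the 3 to which it gives an adjusted p. Without replicate 1 of shControl ST14 passes (0.095, edgeR adjusted p = 0.043).

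Around AXL, its relative TYRO3 rises (46.4 ± 3.47 CPM to 53.8 ± 2.67 CPM, SD, n = 3, log2 fold change 0.21, edgeR adjusted p = 0.017), a call kept in 10 of 16 alternatives and lost without replicate 2 of shControl (adjusted p = 0.080), replicate 1 of shSTBD1 (0.092) or replicate 3 of shSTBD1 (0.066). The relative MERTK is at 0.31 (adjusted p = 0.11), and the ligands GAS6 (−0.052) and PROS1 (0.041) are not called either. Of 11 proteases and regulators that free the ligands from the membrane, 9 are tested, 3 fall and 1 rises, against 7.54% and 8.22% of all tested genes. ADAM19, a metalloprotease, falls by 0.71 on the log2 scale, ADAM9 by 0.25 and FRMD8, which stabilises the iRhom-ADAM17 complex, by 0.22. RHBDF1, which encodes an iRhom, rises by 0.25 (edgeR adjusted p = 0.047), but only 5 of 16 alternatives call it, and DESeq2 and each fit with 1 library left out do not. ADAM19 and ADAM9 are called in all 16 and FRMD8 in 13. ADAM17, the main protease of AREG, is at 16.6 TPM in shControl and 14.5 TPM in shSTBD1 and does not pass (log2 fold change −0.13, edgeR adjusted p = 0.14), nor does ADAM10 (−0.0090).

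Downstream genes are described by list. Of 21 adaptors and proximal signalling genes, 1 is called: GRB7, an adaptor that binds ERBB2, rises (0.24, edgeR adjusted p = 0.036). It is called in 7 of 16 alternatives, not with DESeq2 (adjusted p = 0.074), and with 1 library left out only when that is replicate 2 of shControl. Without replicate 1 of shControl its value is 0.20 (adjusted p = 0.083), and the list then has 0 genes called higher and 1 lower. The GRB7 gene lies close to ERBB2, which is not called. Of 13 genes of receptor ubiquitination and sorting, CD2AP rises (0.20) and SH3KBP1 falls (−0.23), both adaptors in receptor endocytosis, and the share called, 15.4%, is near the 15.8% of all tested genes. Of 16 feedback inhibitors of the receptors, 2 rise and 3 fall by edgeR, and 1 rises and 1 falls by DESeq2. ERRFI1, which binds and blocks the EGFR kinase, rises from 458 ± 16.4 to 568 ± 16.7 TPM (0.33), and SPRY1 rises by 0.40 from 4.05 TPM, whereas the phosphatase PTPRJ (−0.27), SPRED1 (−0.15) and SOCS4 (−0.13) fall. ERRFI1 is called in all 16 alternatives and PTPRJ in 13, but SPRY1 in 6, SPRED1 in 5 and SOCS4 in 5. With any 1 library left out SPRY1 and SPRED1 are not called, and SOCS4 is called only without replicate 1 of shControl (adjusted p = 0.021).

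The lists read out furthest downstream point in opposite directions. Of 10 genes commonly used as a readout of MAPK output, 5 are called lower and 0 higher by edgeR, where 7.54% of all tested genes are called lower. At an unadjusted p under 0.05 there are 7 lower and 0 higher. DESeq2 calls 4 lower and 0 higher of the 9 to which it gives an adjusted p. The median log2 fold change is −0.21: CCND1, cyclin D1, falls from 204 ± 12.1 to 153 ± 9.13 TPM (−0.42), and the MAPK phosphatases DUSP6 and DUSP4 fall by 0.31 and 0.22 on the log2 scale. Of 12 immediate early genes, which serum and growth factors induce within minutes, 8 are called higher and 0 lower by edgeR, where 8.22% of all tested genes are called higher. At an unadjusted p under 0.05 there are 9 higher and 0 lower. DESeq2 calls 7 higher and 0 lower of the 9 to which it gives an adjusted p. The median is 0.23: IER3 rises from 385 ± 46.5 to 552 ± 7.01 TPM (0.54), FOS by 0.42 (called in 8 of 16 alternatives) and the stress-responsive factor ATF3 by 0.39. Without replicate 1 of shControl the counts are 6 lower and 0 higher for the first list, and 7 higher and 0 lower for the second. With offsets for effective length, where 511 of all tested genes are called in place of 2453, they are 2 lower and 3 higher. Over all 9 lists, with each gene counted once, 26 of the 89 tested genes are called (29.2%, against the background of 15.8%), 14 higher and 12 lower. The lists were chosen with earlier results of these data known, so none of their shares is a test against the background.

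**Figure D4:**
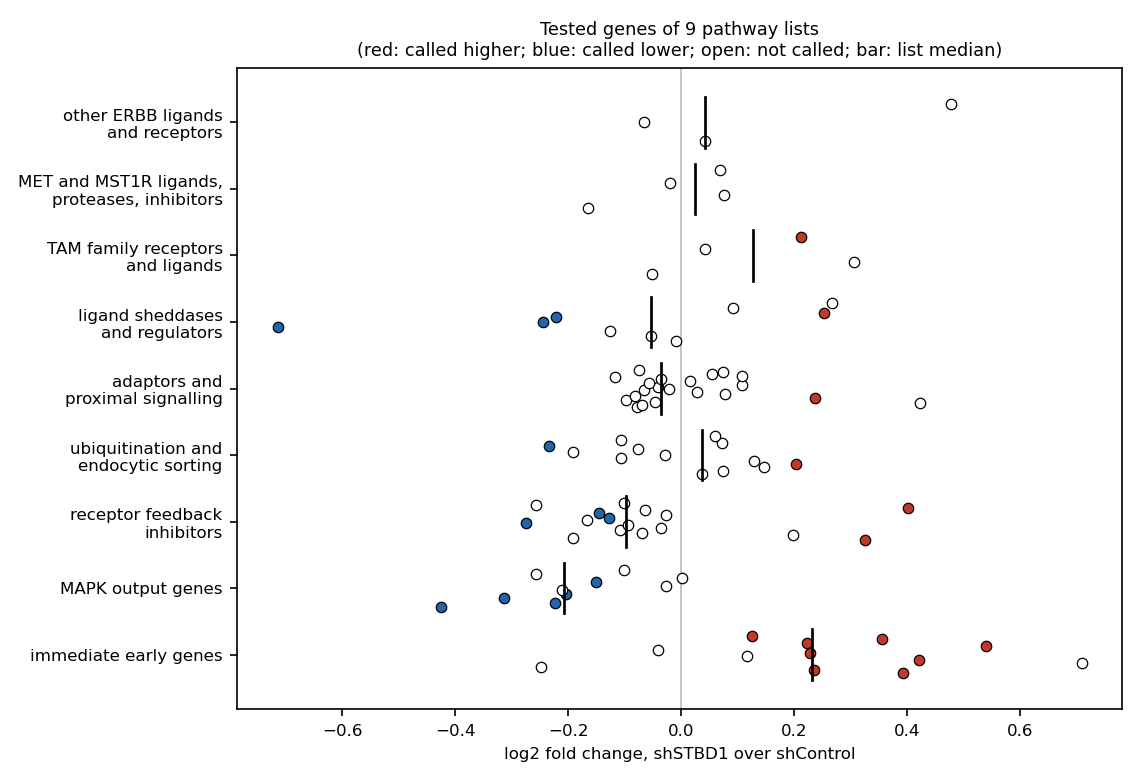
Each point is a tested gene, placed by its log2 fold change of shSTBD1 over shControl (x axis) in the row of its list, red where called higher, blue where called lower and open where not called, with a bar at the list median. The called MAPK output genes (5) are all to the left of 0 and the called immediate early genes (8) all to the right.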

How the data were processed

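RNA is measured in 3 shControl and 3 shSTBD1 libraries of HCT116 cells, grouped by the hairpin in the labels. The authors use STAR 2.7.1a for alignment (hg38, gene models of Ensembl release 93) and RSEM 1.3.1 for quantification. They deposited per gene an expected count (not normalized), TPM and FPKM (scaled within each library), the posterior mean TPM, the effective length and the count's posterior standard deviation. Whether strand is used in counting is not stated, so antisense transcripts may add reads.

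Expected counts are rounded, filtered with filterByExpr and scaled by TMM, and groups are compared with edgeR 4.0.16 (quasi-likelihood F-test, R 4.3.3) without a replicate term. P-values are adjusted over all 15566 tested genes, with 0.05 as threshold. SE is the log2 fold change divided by the square root of F. Log2 CPM with a prior count of 2 is used for the correlations of deviations between libraries. Of 58395 genes, 57754 match a symbol. Positions are from GRCh38 with GENCODE release 44, and promoter windows from RefSeq's GRCh38.p14. The 10 genes and the lists were chosen with earlier results of these data known. Named genes are the 10, STBD1, all genes of the first 3 lists, up to 3 called genes in each direction of every other list, and called genes from EREG to STBD1. Outside this rule, and after their values were seen, ADAM17, ADAM10, FAM47E-STBD1 and some of the uncalled markers are named. Alternatives are DESeq2 1.42.0, upper-quartile factors, scaling by library size, no filter, at least 10 counts in every library, unrounded counts, effective-length offsets, a replicate block, limma 3.58.1 on log2(TPM + 1) and log2(TPM + 0.1), and leaving out each library. Scripts were tested on simulated data. The depth, 17689097 to 21668274 expected counts per library, limits precision for HBEGF most.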

Additional observations from a re-analysis of the deposited data

How the results depend on the processing

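MET, AREG and EREG pass the threshold under all 16 alternatives, EGFR and STBD1 under 14, MST1R under 9 and TGFA under 1; AXL, ERBB2, ERBB3 and HBEGF pass under none. STBD1 is at −0.54 (adjusted p = 0.0646) and −0.65 (0.0672) with limma on log2(TPM + 1) and log2(TPM + 0.1), and between −0.76 and −0.57 with 1 library left out. The sign turns for AXL with library size alone (0.0019) and between −0.051 and 0.026 with 1 library left out, for ERBB2 with offsets for effective length (−0.074), limma on TPM (−0.081 and −0.083) and 1 library left out (−0.0049 to 0.014), for ERBB3 with limma (−0.015 and −0.017) and for HBEGF without replicate 1 of shControl (−0.063; range −0.063 to 0.22). Of the 10 genes, 3 are called with either limma fit and 4 to 6 with 1 library left out. Of all tested genes, 2453 are called by edgeR, 1693 by DESeq2, 511 with offsets for effective length, 292 and 290 with limma on log2(TPM + 1) and log2(TPM + 0.1), and 1409 to 2577 with 1 library left out. Each shSTBD1 library decides this count by over 1.5 times (1570 without replicate 1, 1409 without replicate 2, 1497 without replicate 3). Of the pathway genes, 26 are called, 10 with effective-length offsets, 8 with either limma fit and 18 to 27 with 1 library left out; the cause was not tested. With the posterior mean TPM 6 of the 10 genes keep their rank. Deviations from the group mean correlate at 0.071, 0.068 and −0.0084 between same-numbered libraries and at −0.074 to 0.010 between the others. With 3 libraries per group these values cannot decide whether the replicate numbers pair the libraries. With the replicate block 2579 genes are called, and the 5 calls among the 10 genes remain, with MET and AREG at −0.25 and 0.63.

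Depth limits HBEGF most, with 130 to 209 counts per library. The exact permutation test of single ratios cannot pass 0.05 with 3 against 3 libraries.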
